A study of Mus musculus with 12 samples.

Results

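Blood vessels set their tone and leakiness through a small group of secreted signals and their receptors, and 9 mouse genes of this kind were followed in brain endothelial cells, by gene symbol, out of 49315 genes in the count files. They were Nos3 (nitric oxide synthase), Edn1, Ece1, Ednra and Ednrb (the endothelin ligand, its converting enzyme and its receptors), Bdkrb1 and Bdkrb2 (the bradykinin receptors), and Npr1 and Npr3 (natriuretic peptide receptors). The study asked whether the intracellular domain of GPR124, an adhesion receptor that promotes WNT signaling in brain endothelium, is needed in embryonic brain vessels. Forebrains of E15.5 mouse embryos were sorted for live CD31+ cells without CD140b or CD45, and RNA-seq was done on 4 WT, 4 Gpr124ΔC/ΔC (Gpr124deltaC/deltaC in the labels) and 4 Gpr124-/- embryos, with 1 embryo per library. The ΔC allele carries a V5 tag and a stop where the intracellular domain begins, so that a shortened protein is made. The study reported less of this protein than of wild-type GPR124, at the cell surface and in total, with similar mRNA levels. Gpr124-/- embryos carry a lacZ knockout allele. Both alleles are carried by all cells of the embryo and were made homozygous by crossing heterozygous parents, so cells outside the endothelium were mutant too. Since RNA was pooled from all sorted cells of an embryo, fewer cells of a type and less RNA per cell cannot be told apart.

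Endothelial nitric oxide synthase makes nitric oxide from arginine, and the gas raises cGMP in nearby smooth muscle and relaxes it. Endothelin-1 is cut from its precursor by the converting enzyme and constricts vessels through the type A receptor on mural cells, while the type B receptor on endothelium triggers nitric oxide release and clears the peptide. Bradykinin acts mainly on the B2 receptor, which raises endothelial calcium, nitric oxide and permeability, whereas the B1 receptor is usually scarce and is induced in inflamed tissue.

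The genes of both receptors that act on endothelial nitric oxide release, Ednrb and Bdkrb2, were higher in each mutant than in WT, and they differed in how the mutants compared with each other. Ednrb rose 2.86-fold in Gpr124ΔC/ΔC and 15.3-fold in Gpr124-/-, and Bdkrb2 rose 3.60-fold and 3.79-fold (edgeR, 4 embryos per genotype). In Gpr124-/-, Nos3 was lower by a log2 fold change of −0.68, and neither Edn1 nor Ece1 passed the test in any comparison. Calls required both an adjusted p under 0.05 (edgeR, quasi-likelihood) and a log2 fold change beyond 1 in either direction.

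Reads on genes ranged from 13877572 to 22551163 per library, and 16637 genes had enough of them to be tested. As a check of the labels, Adgra2, the gene of GPR124, lay between 28.3 and 51.1 TPM (a read count divided by gene length and scaled to a fixed library total) in WT, between 34.1 and 63.4 in Gpr124ΔC/ΔC and between 4.03 and 6.29 in Gpr124-/-. The endothelial genes Pecam1 and Cdh5 stood at 491 ± 52.9 and 306 ± 28.2 TPM in WT (SD, n = 4), against at most 0.0822 TPM of Ptprc and 3.96 TPM of Pdgfrb in any library, which encode the excluded CD45 and CD140b. The macrophage genes C1qb and C1qa reached 6.84 and 5.16 TPM. Embryo labels begin with J, K, L or M, whose meaning is not given. J holds 2 WT and 2 Gpr124ΔC/ΔC libraries, K holds 1 WT and 1 Gpr124-/-, L holds 1 WT and 2 Gpr124ΔC/ΔC, and M holds 3 Gpr124-/-. M has no other genotype. A fit with the letter as a term therefore takes the difference between Gpr124-/- and WT from KE4 against KE8 of K, 1 embryo against 1. Between the mutants, that fit also draws on the J and L libraries. Its spread comes from J, L and M, and its values for Gpr124-/- below carry the limit of 1 embryo.

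Of the 9 genes, 8 had enough reads to be tested. In Gpr124-/- against WT, 2 of the 8 passed an adjusted p under 0.05 as higher, where 10.5% of all tested genes did, and 1 passed as lower, where 9.32% did. Ednrb and Bdkrb2 also passed the fold threshold, which 9.88% of tested genes did. In Gpr124ΔC/ΔC against WT, 2 of the 8 were higher and none was lower, against 1.85% and 2.24% of all tested genes. Both were called, against 1.92% of tested genes. In Gpr124-/- against Gpr124ΔC/ΔC, 1 of the 8 was higher and none was lower, against 4.93% and 3.89%, and that gene, Ednrb, was called, against 4.6%. The median log2 fold change of the 8 was −0.08 in Gpr124-/- and 0.06 in Gpr124ΔC/ΔC against WT, beside −0.01 and 0.01 over all tested genes. Both comparisons with WT use the same 4 WT libraries.

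**Figure D1:**
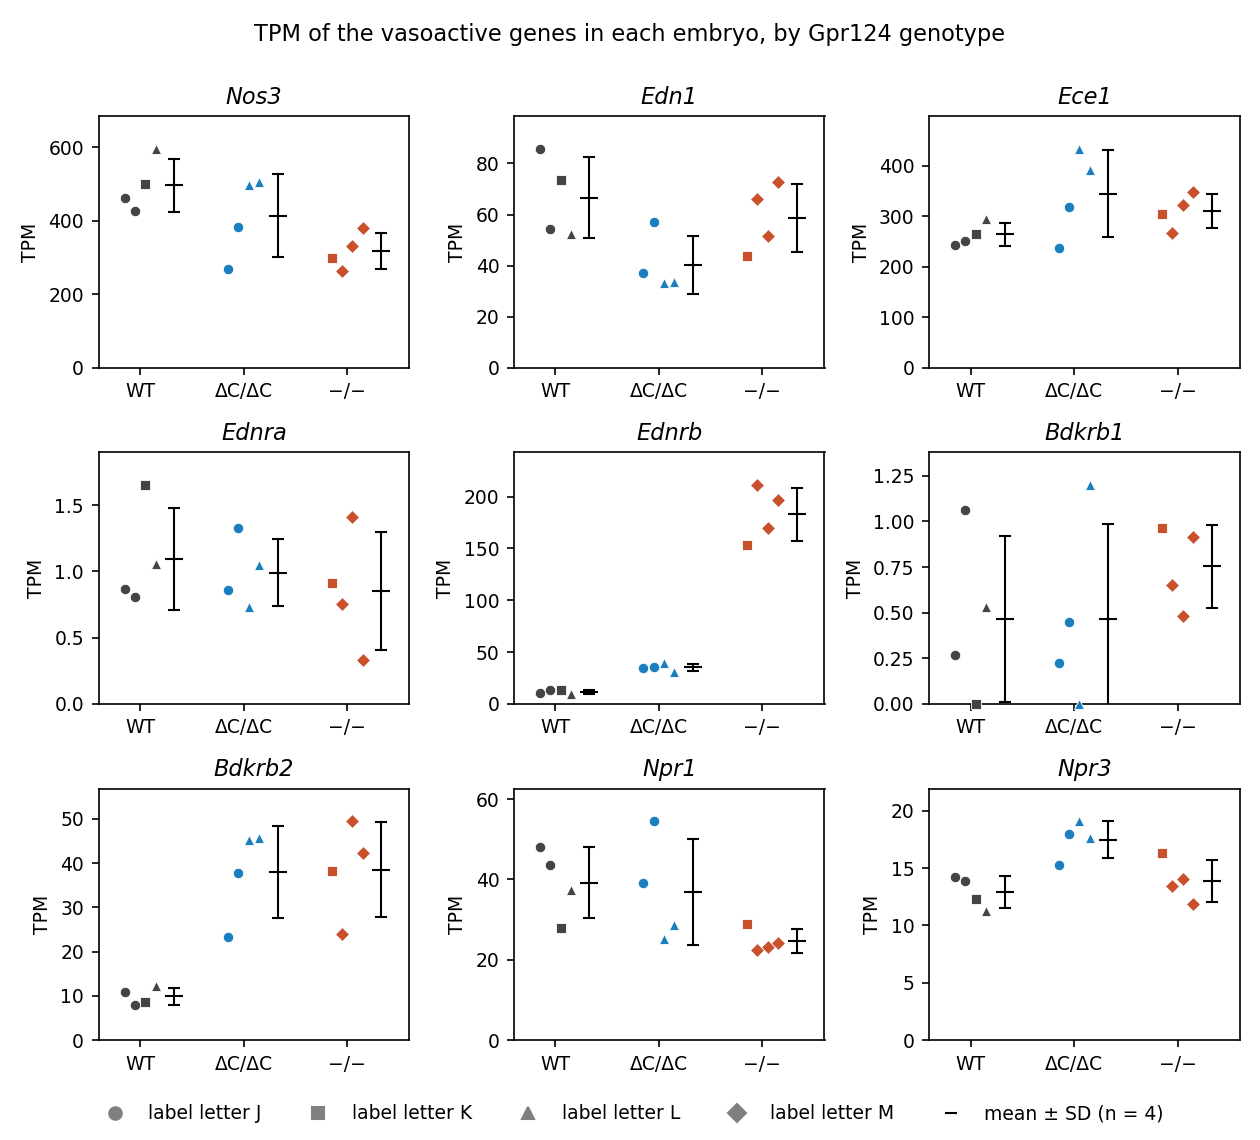
TPM (vertical axes, each from 0) of the 9 genes in each of the 12 embryos, by genotype, with the mean ± SD (n = 4) in black and marker shapes for the letter that begins each label. Ednrb separates all 3 genotypes, Bdkrb2 separates WT from both mutants, and Nos3 in Gpr124-/- lies below WT.

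Ednrb (ENSMUSG00000022122) encodes the type B endothelin receptor and spans chr14:103814625-103844173 on the minus strand of GRCm38. WT embryos gave 10.6, 13.3, 13.0 and 9.60 TPM. Gpr124ΔC/ΔC embryos gave 34.5, 35.7, 39.7 and 31.1 TPM. Gpr124-/- embryos gave 154, 211, 170 and 197 TPM. Each genotype formed a tight cluster, and no value of any genotype overlapped those of another. The means were 11.6 ± 1.81, 35.3 ± 3.55 and 183 ± 25.9 TPM (SD, n = 4). Against WT, the log2 fold change was 3.93 in Gpr124-/- (standard error 0.18, 95% confidence interval 3.54 to 4.32, adjusted p = 7.8e-08, edgeR) and 1.52 in Gpr124ΔC/ΔC (standard error 0.16, interval 1.16 to 1.87, adjusted p = 0.000213, edgeR). The direct test between the mutants gave 2.41 (standard error 0.17, interval 2.05 to 2.78, adjusted p = 3.94e-05, edgeR), so the difference between the mutants was itself beyond the spread of embryos. On TPM, exact two-sided permutation gave p = 0.0286 for Ednrb in each of the 3 comparisons, the smallest that 4 embryos against 4 allow. In Gpr124-/- the rise of Ednrb was the 30th largest of the 16637 tested genes, and in Gpr124ΔC/ΔC it was the 126th largest. Within label letters, where few libraries remain and no separate test was run, the difference in log2 CPM (reads scaled to library size) between Gpr124ΔC/ΔC and WT was 1.51 in J and 1.76 in L, and that between Gpr124-/- and WT was 3.51 in K.

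Bdkrb2 (ENSMUSG00000021070), the B2 bradykinin receptor gene, spans chr12:105563172-105593071 on the plus strand. In WT its TPM was 10.8, 7.91, 8.52 and 12.2. In Gpr124ΔC/ΔC it was 23.2, 37.8, 45.2 and 45.7. In Gpr124-/- it was 38.3, 24.0, 49.4 and 42.2. Every mutant embryo lay above every WT embryo, while the mutants covered nearly the same range. The log2 fold change against WT was 1.92 in Gpr124-/- (standard error 0.22, adjusted p = 4.91e-05, edgeR) and 1.85 in Gpr124ΔC/ΔC (standard error 0.22, adjusted p = 0.000421, edgeR). Between the mutants it was 0.07, with a 95% interval from −0.38 to 0.53 (adjusted p = 0.87, edgeR). A difference within those bounds was not detectable. With the label letter as a term it was 0.42. In that fit KE4 alone, set against KE8, stands for Gpr124-/-, and the J and L libraries give the Gpr124ΔC/ΔC difference from WT. The rise of Bdkrb2 was the 51st largest of all tested genes in Gpr124ΔC/ΔC and the 361st largest in Gpr124-/-. The counts behind these values were modest, from 87 to 141 reads per library in WT and from 215 to 601 in the mutants. Within label letters the log2 CPM difference from WT was 1.61 in J and 1.78 in L for Gpr124ΔC/ΔC and 2.10 in K for Gpr124-/-.

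**Figure D2:**
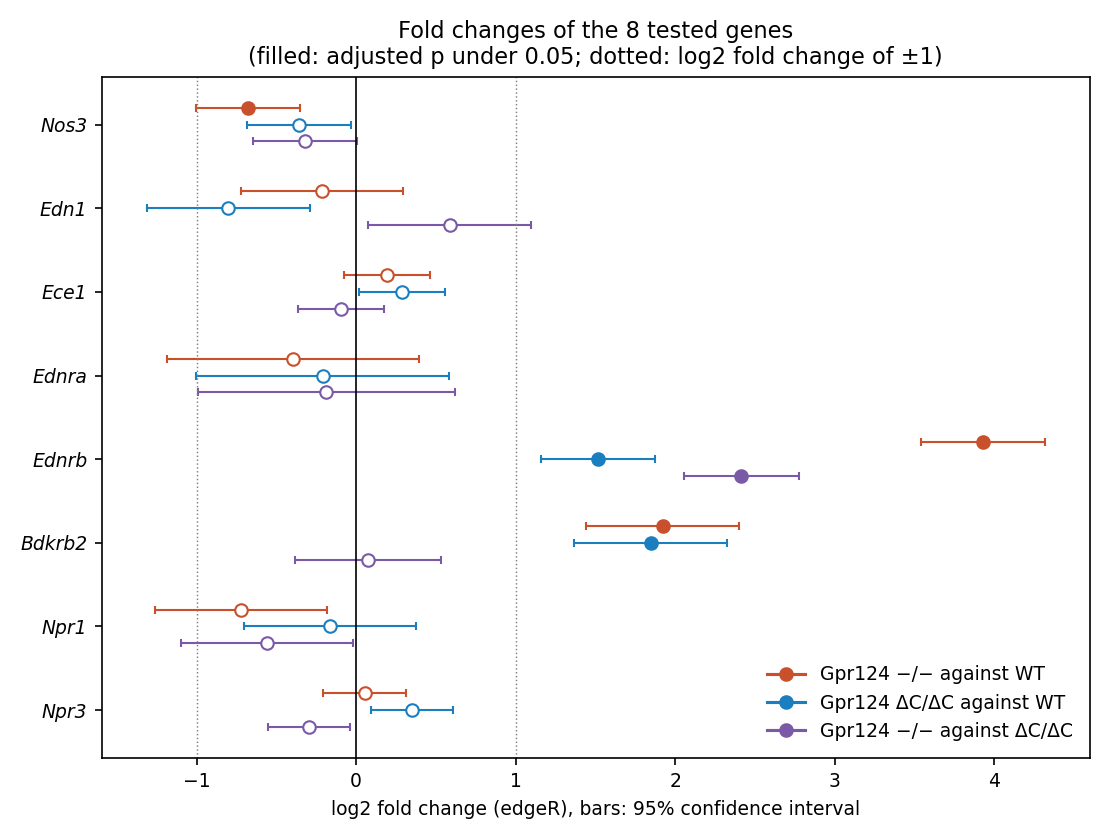
Log2 fold changes (horizontal axis) of the 8 tested genes in the 3 comparisons, with 95% confidence intervals as bars, and filled points at an adjusted p under 0.05 (edgeR). Ednrb is at 3.93, 1.52 and 2.41, Bdkrb2 is at 1.92 and 1.85 against WT and 0.07 between the mutants, and Nos3 is the filled point below 0.

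Their partner receptors stayed at the edge of detection. Ednra (ENSMUSG00000031616, chr8:77663031-77724464, minus strand) encodes the constrictor type A receptor, which is mainly a mural cell gene. It gave 0.809 to 1.65 TPM in WT, 0.735 to 1.32 in Gpr124ΔC/ΔC and 0.329 to 1.41 in Gpr124-/-, from 11 to 60 reads per library. The ranges overlapped throughout, and its log2 fold change against WT was −0.39 in Gpr124-/- (interval −1.19 to 0.40) and −0.21 in Gpr124ΔC/ΔC (interval −1.0 to 0.58). Ednrb therefore made up 91.4% ± 2.45 of the summed endothelin receptor TPM in WT, 97.2% ± 0.798 in Gpr124ΔC/ΔC and 99.5% ± 0.286 in Gpr124-/- (SD, n = 4), and the sum went from 12.7 to 36.3 to 184 TPM. Bdkrb1 (ENSMUSG00000041347, chr12:105603085-105605428, plus strand), the inducible B1 receptor gene, begins 10013 bases beyond the end of Bdkrb2. It had 0 to 10 reads in each library and was not tested. WT embryos gave 0.268, 1.06, 0 and 0.530 TPM, Gpr124ΔC/ΔC embryos gave 0.227, 0.446, 0 and 1.20, and Gpr124-/- embryos gave 0.964, 0.653, 0.481 and 0.913. At this depth no difference of Bdkrb1 was detectable (exact permutation p = 0.314 for Gpr124-/- and 1 for Gpr124ΔC/ΔC against WT), so a change beside that of its neighbor Bdkrb2 could not be judged.

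Start regions are shown for both receptor genes that rose, and for the ligand gene Edn1. RefSeq start regions (GRCm38.p6) were found for 7 of the 9 genes, in 10 windows, and each window was searched on both strands from 250 bases before to 50 after the start. The motifs were TCF/LEF of the WNT pathway (CTTTGAA or CTTTGAT or CTTTGTA or CTTTGTT), AP-1 (TGANTCA), the core of the hypoxia element (ACGTG) and the motif of GATA factors (AGATAA or TGATAA). Some sites could count under both the first and the last motif, since CTTTGAT with a pair of further As holds TGATAA. The lines run 5′ to 3′ on the gene's strand from 250 bases before to 30 after the start, with motif matches in capitals, for Ednrb at chr14:103843672-103843951 (minus strand), Bdkrb2 at chr12:105562922-105563201 (plus strand) and Edn1 at chr13:42301226-42301505 (plus strand).
Ednrb: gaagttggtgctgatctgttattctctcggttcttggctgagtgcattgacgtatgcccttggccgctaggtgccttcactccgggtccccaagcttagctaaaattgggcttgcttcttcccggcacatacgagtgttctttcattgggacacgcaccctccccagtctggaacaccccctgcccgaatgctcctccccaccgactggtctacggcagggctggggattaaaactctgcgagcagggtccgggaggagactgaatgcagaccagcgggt
Bdkrb2: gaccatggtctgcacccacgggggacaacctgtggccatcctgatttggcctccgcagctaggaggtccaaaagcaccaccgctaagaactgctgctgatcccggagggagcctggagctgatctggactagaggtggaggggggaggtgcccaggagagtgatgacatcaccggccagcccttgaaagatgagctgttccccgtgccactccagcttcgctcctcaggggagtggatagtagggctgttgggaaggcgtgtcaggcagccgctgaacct
Edn1: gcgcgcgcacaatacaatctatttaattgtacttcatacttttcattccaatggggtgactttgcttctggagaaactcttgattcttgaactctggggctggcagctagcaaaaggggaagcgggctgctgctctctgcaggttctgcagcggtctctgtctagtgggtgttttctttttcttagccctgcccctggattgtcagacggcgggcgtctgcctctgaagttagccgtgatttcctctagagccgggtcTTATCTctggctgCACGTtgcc
Neither the Ednrb nor the Bdkrb2 window held a match to any of the 4 motifs. The Ednrb window lay inside the counted span of its gene, which runs to 103844173, so bases before that end were not searched. The Npr3 window, from 11907322, lay outside the counted span of its gene, which ends at 11905674. Among 32817 distinct windows of all genes, 16.9% held a TCF/LEF match, 7.81% AP-1, 19.6% the hypoxia core and 18.6% GATA. The Edn1 window held TTATCT, which matches the motif of GATA factors on the opposite strand, 9 to 14 bases after the start, and CACGT, a hypoxia core 22 to 26 bases after it. Of the 4 Ece1 windows, chr4:137913308-137913607 held overlapping hypoxia cores on both strands, from 90 to 85 bases before the start, and chr4:137920543-137920842 held TTCAAAG, a TCF/LEF match on the opposite strand from 122 to 116 bases before it. No other window of these genes held a match. A match is a run of letters and not a measured binding site, and its absence says only that the letters are not in the window.

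Nos3 (ENSMUSG00000028978, chr5:24364810-24384474, plus strand), the endothelial nitric oxide synthase gene, was the most abundant of the 9 genes in WT. WT embryos gave 462, 427, 501 and 595 TPM. Gpr124ΔC/ΔC embryos gave 269, 383, 497 and 507 TPM, and Gpr124-/- embryos gave 298, 264, 332 and 379 TPM. All Gpr124-/- embryos lay below all WT embryos, whereas Gpr124ΔC/ΔC embryos spread across both ranges. The log2 fold change in Gpr124-/- was −0.68 (standard error 0.15, adjusted p = 0.00632, edgeR), which passed the test but not the fold threshold. It was −0.36 in Gpr124ΔC/ΔC (interval −0.68 to −0.03, adjusted p = 0.281, edgeR) and −0.32 between the mutants (interval −0.65 to 0.01, adjusted p = 0.227, edgeR), so the mutants were not shown to differ. Nos3 was lower in J libraries than in the others, at 427 to 462 against 501 to 595 TPM in WT and 269 to 383 against 497 to 507 in Gpr124ΔC/ΔC, and no Gpr124-/- library has the letter J. With the label letter as a term the fall in Gpr124-/-, then KE4 against KE8 alone, was −0.79 and its adjusted p was 0.0525 (edgeR), no longer under 0.05, and limma on log2(TPM + 1) without a filter on low values gave an adjusted p of 0.0807, the extremes over 17 alternatives being 0.000531 and 0.0807. In Gpr124ΔC/ΔC the letter term gave −0.45 with an adjusted p of 0.046 (edgeR), now under 0.05, the extremes over 17 alternatives being 0.046 and 0.805. The gene shares 1040 exonic bases, 25.2% of its exon length, with Gm15587 and 294 bases with Atg9b on the opposite strand, and whether reads were counted by strand is not given. Those neighbors had 173 to 586 and 11 to 92 reads per library against 5818 to 16173 for Nos3.

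Edn1 (ENSMUSG00000021367, chr13:42301270-42307989, plus strand), the gene of the endothelin-1 precursor, gave 85.6, 54.4, 73.7 and 52.5 TPM in WT. It gave 37.1, 56.9, 33.2 and 33.4 TPM in Gpr124ΔC/ΔC and 43.6, 66.1, 51.5 and 72.8 TPM in Gpr124-/-. In Gpr124ΔC/ΔC, 3 of 4 embryos lay below all WT embryos and embryo JE4 lay among them. The log2 fold change was −0.80 in Gpr124ΔC/ΔC (interval −1.31 to −0.29, adjusted p = 0.0894, edgeR) and −0.22 in Gpr124-/- (interval −0.72 to 0.29, adjusted p = 0.593, edgeR), and neither passed. The Gpr124ΔC/ΔC difference reached an adjusted p of 0.0246 with DESeq2 and 0.023 with the label letter as a term in edgeR, within a span from 0.023 to 0.243 over 17 alternatives. In Gpr124-/- the letter term, and so KE4 against KE8 alone, gave −0.80 for Edn1 (adjusted p = 0.168, edgeR). Ece1 (ENSMUSG00000057530, chr4:137862237-137965229, plus strand), the gene of the enzyme that releases active endothelin, was abundant in all genotypes. It gave 243 to 294 TPM in WT, 236 to 433 in Gpr124ΔC/ΔC and 266 to 348 in Gpr124-/-. Its log2 fold changes were 0.19 in Gpr124-/- (interval −0.08 to 0.46) and 0.29 in Gpr124ΔC/ΔC (interval 0.02 to 0.56), with adjusted p of 0.34 and 0.297 (edgeR).

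Npr1 (ENSMUSG00000027931, chr3:90450591-90465866, minus strand) encodes the natriuretic peptide receptor that makes cGMP. It gave 48.2, 43.5, 27.9 and 37.3 TPM in WT, 39.1, 54.4, 25.3 and 28.5 in Gpr124ΔC/ΔC, and 29.0, 22.5, 23.1 and 24.0 in Gpr124-/-. Gpr124-/- embryos formed a narrow low group that WT embryo KE8 overlapped. The log2 fold change in Gpr124-/- was −0.72 (interval −1.26 to −0.18, adjusted p = 0.0602, edgeR) and did not pass. J libraries held 43.5 to 48.2 TPM in WT and 39.1 to 54.4 in Gpr124ΔC/ΔC, against 27.9 to 37.3 and 25.3 to 28.5 in the other libraries of those genotypes, and no Gpr124-/- library has that letter. With the letter as a term the log2 fold change was 0.01 (adjusted p = 0.993, edgeR), which is KE4 against KE8, the lowest WT embryo. Without WT embryo KE8 it was −0.86 (adjusted p = 0.0335, edgeR), and over 17 alternatives the adjusted p of Npr1 spanned 0.0186 to 0.993. Npr1 shares 559 exonic bases with Gm16048 on the opposite strand, which had 12 to 39 reads per library. Npr3 (ENSMUSG00000022206, chr15:11839896-11905674, minus strand), the clearance receptor gene that removes natriuretic peptides, gave 14.2, 13.9, 12.3 and 11.3 TPM in WT, 15.3, 18.0, 19.1 and 17.6 in Gpr124ΔC/ΔC, and 16.3, 13.4, 14.0 and 11.8 in Gpr124-/-. The Gpr124ΔC/ΔC embryos lay above all WT embryos (exact permutation p = 0.0286), but the log2 fold change of 0.35 had an adjusted p of 0.154 over all tested genes (edgeR). In Gpr124-/- it was 0.05 (interval −0.20 to 0.31), and KE4 against KE8 alone, by the letter term, gave 0.36 (adjusted p = 0.493, edgeR).

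The order of TPM levels differed between genotypes. In WT the mean TPM ran Nos3, Ece1, Edn1, Npr1, Npr3, Ednrb, Bdkrb2, Ednra and Bdkrb1, and the ranges of embryos overlapped for Npr3 with Ednrb, Ednrb with Bdkrb2 and Ednra with Bdkrb1. In Gpr124ΔC/ΔC, Edn1, Bdkrb2, Npr1 and Ednrb were neighbors at means from 40.1 to 35.3 TPM with overlapping ranges. In Gpr124-/-, Ednrb stood 3rd, apart from Ece1 above it and Edn1 below it, and the ranges of Nos3 and Ece1 overlapped at means of 318 and 310 TPM. Among tested genes, 49.1% had a lower mean TPM than Ednrb in WT and 98.4% had a lower one than Nos3.

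Across the 12 libraries, the genes whose log2 CPM followed each member most closely were sought among 9987 genes that averaged 8 CPM or more, as a description. Ednrb was followed by 1700025G04Rik (Pearson r = 0.994), Kcne3 (0.991) and S100a10 (0.989). Bdkrb2 was followed by Sntb1 (0.978), Rgcc (0.973) and Nradd (0.962), and Nos3 by Cacfd1 (0.979), Vsir (0.973) and Slc41a1 (0.968). Edn1 was followed by Gpr146 (0.940), Adm (0.904) and Tpm1 (0.893), Ece1 by Cul7 (0.921), Rin1 (0.905) and Mlx (0.903), and Ednra by Rps6kb1 (0.928), Rnf146 (0.915) and Pdk3 (0.902). For Npr1 they were Lmo2 (0.952), Galnt11 (0.945) and Arl2bp (0.916), and for Npr3 they were Eef1a1 (0.880), Gm42047 (0.855) and Clec9a (0.844). The points share genotype and label letter, so a high r can come from those alone.

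Beyond the 9 genes, 90 further genes of 7 vasoactive systems were looked up, of which 58 were tested. In Gpr124-/- against WT, 12 were higher and 8 lower at an adjusted p under 0.05, and 9 of the 58 were called, where 10.5%, 9.32% and 9.88% of all tested genes were. In Gpr124ΔC/ΔC the numbers were 2, 4 and 3, where the shares of all tested genes were 1.85%, 2.24% and 1.92%, and between the mutants they were 4, 3 and 5, beside 4.93%, 3.89% and 4.6%. Their median log2 fold change was 0.02 in Gpr124-/- and −0.05 in Gpr124ΔC/ΔC, beside −0.01 and 0.01 over all tested genes. The counts of the single lists that follow are to be read against the same shares.

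Around Nos3, the supply and restraint of the enzyme changed at single genes. Of the 21 tested genes of nitric oxide synthesis and its cofactors, 3 were higher and 4 lower in Gpr124-/- (10.5% and 9.32% of all tested genes), and 1 was higher and 2 lower in Gpr124ΔC/ΔC (1.85% and 2.24%). Slc7a1, which carries arginine into cells, fell from 473 ± 29.9 TPM in WT to 254 ± 39.8 in Gpr124ΔC/ΔC and 74.9 ± 30.1 in Gpr124-/- (SD, n = 4), and its log2 fold change was −0.98 and −2.72 (adjusted p = 0.0116 and 1.85e-06, edgeR). Between the mutants Slc7a1 differed by −1.74 (adjusted p = 0.000358, edgeR). Nostrin, whose product moves the synthase away from the plasma membrane, fell by 1.28 in Gpr124ΔC/ΔC and by 1.13 in Gpr124-/- on the log2 scale (adjusted p = 0.000572 and 0.000272, edgeR). Gchfr, a regulator of the first enzyme of tetrahydrobiopterin synthesis, rose by 1.14 and 1.27 (adjusted p = 0.000358 and 1.94e-05, edgeR). In Gpr124-/- smaller changes passed for Nos2 (−0.56), Asl (−0.52), Cav1 (0.50) and Ddah2 (0.36).

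Among 11 tested genes of cGMP signaling, 4 were higher and 2 lower in Gpr124-/- (10.5% and 9.32% of all tested genes) and none passed in Gpr124ΔC/ΔC (1.85% and 2.24%). The soluble guanylyl cyclase subunit genes Gucy1b1 (log2 fold change 1.27) and Gucy1a1 (0.88), the kinase substrate gene Mrvi1 (2.07) and the phosphodiesterase gene Pde1c (0.98) rose. The cGMP-dependent kinase gene Prkg1 (−1.03) and the phosphodiesterase gene Pde5a (−0.86) fell. Apart from Mrvi1, whose mean was 11.8 TPM in Gpr124-/-, these genes stayed under 8 TPM in every library. For the endothelin system, 2 of 5 tested genes were higher in Gpr124-/- (10.5% of all tested genes), the converting enzyme gene Ece2 (0.34) and the protease gene Pcsk5 (0.54), and none passed in Gpr124ΔC/ΔC. Edn2 was listed at 0 in all libraries, and Edn3, which encodes another ligand of the type B receptor, had a mean of 3.71 TPM in WT and 3.20 in Gpr124-/-.

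In the kinin system, 1 of 10 tested genes was higher and 1 lower in Gpr124-/-, near the 10.5% and 9.32% of all tested genes, and none passed in Gpr124ΔC/ΔC. Both encode peptidases. Ace, which degrades bradykinin and is also listed under the renin-angiotensin system, rose by 0.83, and Dpp4 went from 23.6 ± 10.4 to 1.59 ± 0.489 TPM (log2 fold change −3.92, adjusted p = 3.61e-05, edgeR). Kng1, a gene of the bradykinin precursor, was listed at 0 in all libraries. Neither of 2 tested natriuretic genes passed in any comparison, and Nppa, Nppb and Nppc stayed at or below 1.05 TPM. Of 6 tested renin-angiotensin genes, only Ace passed.

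Adrenomedullin, another endothelial peptide, signals through the receptor Calcrl with a RAMP partner protein. Ramp3 rose from 2.85 ± 0.675 TPM in WT to 8.38 ± 1.29 in Gpr124ΔC/ΔC and 54.0 ± 11.4 in Gpr124-/- (SD, n = 4). Its log2 fold changes were 1.48, 4.21 and, between the mutants, 2.73 (adjusted p = 0.00209, 1.99e-07 and 3.94e-05, edgeR), beside 1.52, 3.93 and 2.41 for Ednrb. Ramp2 fell by 0.46 and 0.82 in Gpr124ΔC/ΔC and Gpr124-/-, from a WT mean of 1235 TPM. Adm fell by 0.92 in Gpr124ΔC/ΔC (adjusted p = 0.0114, edgeR), and the scavenger receptor gene Ackr3 rose by 1.29 in Gpr124-/-. In all, 2 of 6 tested genes were higher and 1 lower in Gpr124-/- (10.5% and 9.32% of all tested genes), and 1 was higher and 2 lower in Gpr124ΔC/ΔC (1.85% and 2.24%).

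**Figure D3:**
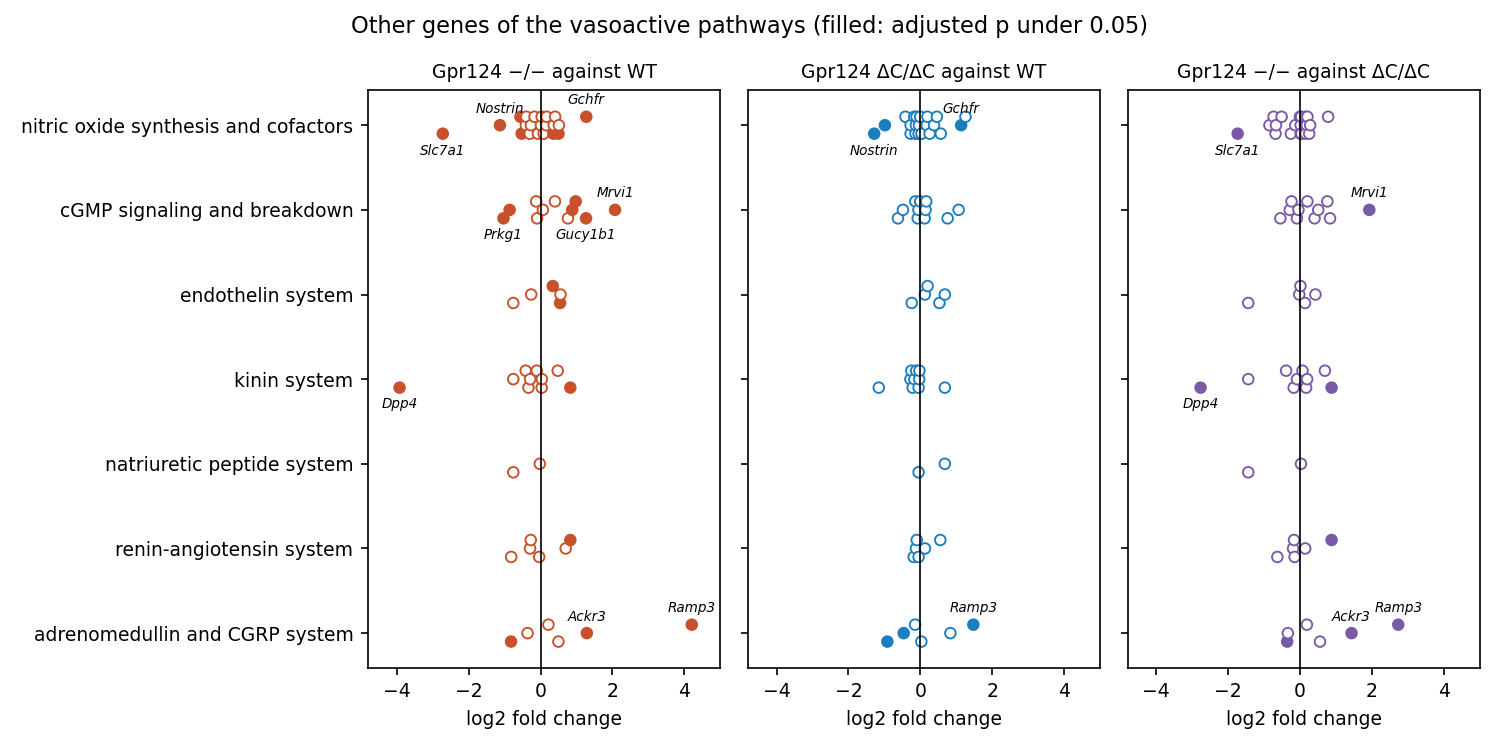
Log2 fold change (horizontal axis) of each tested gene of the 7 vasoactive lists other than the 9 genes, in the 3 comparisons, with 1 point per gene and list, filled at an adjusted p under 0.05 (edgeR) and named where the absolute change also exceeds 1. Slc7a1 (−2.72), Dpp4 (−3.92) and Ramp3 (4.21) lie farthest from 0 in Gpr124-/-.

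Markers of other cells moved in Gpr124-/- beside these genes. Erythroid markers summed to 13375 to 41527 TPM in Gpr124-/-, 5375 to 9094 in WT and 4020 to 7477 in Gpr124ΔC/ΔC, and 4 of 6 were called higher in Gpr124-/-. Platelet markers summed to 513 to 1504, 243 to 480 and 331 to 462 TPM, and 5 of 5 were called higher. In Gpr124-/-, embryos ordered ME4, KE4, ME5 and ME1 had 13375, 19033, 26982 and 41527 erythroid TPM, beside 170, 154, 197 and 211 TPM of Ednrb, 49.4, 38.3, 42.2 and 24.0 TPM of Bdkrb2 and 332, 298, 379 and 264 TPM of Nos3. The part of these markers, and of those given next, in the values of Ednrb, Bdkrb2 and Nos3 was not tested. In Gpr124ΔC/ΔC, where Ednrb and Bdkrb2 also rose, no erythroid and no platelet marker passed. Between the mutants, where Ednrb was called, 5 of 6 erythroid and 4 of 5 platelet markers were called higher in Gpr124-/-.

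Mural markers summed to 22.3 to 44.2 TPM in WT, 13.7 to 33.1 in Gpr124ΔC/ΔC and 30.1 to 43.0 in Gpr124-/-. In Gpr124-/-, 1 of the 10 was higher (Abcc9, 2.66) and 1 lower (Rgs5, −1.47), and against Gpr124ΔC/ΔC, Abcc9 (2.75) and Kcnj8 (1.43) were higher. Astrocyte and radial glia markers summed to 114 to 137, 111 to 120 and 138 to 167 TPM, and mean Nes alone was 85.6, 86.3 and 111 TPM. Of that list, 1 of 7 tested, Slc1a3, was lower in each mutant. Neuron markers summed to 57.0 to 134, 79.9 to 150 and 110 to 138 TPM, with 1 of 6 higher in Gpr124-/-. Fibroblast markers summed to 12.7 to 68.5, 9.03 to 17.9 and 12.5 to 15.2 TPM, with 1 of 5 tested lower in Gpr124-/-. Macrophage and microglia markers summed to at most 17.9 TPM, and neither of 2 tested passed against WT, while Mrc1 was lower in Gpr124-/- than in Gpr124ΔC/ΔC (−1.75). No marker of these lists was at 0 in all libraries. Of 8 endothelial markers, Cdh5 (0.74) and Pecam1 (0.54) were higher and Cldn5 (−2.12), Tek (−0.73) and Erg (−0.41) lower in Gpr124-/-, and Cldn5 was lower in Gpr124ΔC/ΔC (−0.97). The endothelial sum was 11679 to 15253 TPM in WT, 6973 to 11925 in Gpr124ΔC/ΔC and 5811 to 7123 in Gpr124-/-, and mean Cldn5 was 9177, 4994 and 2166 TPM.

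**Figure D4:**
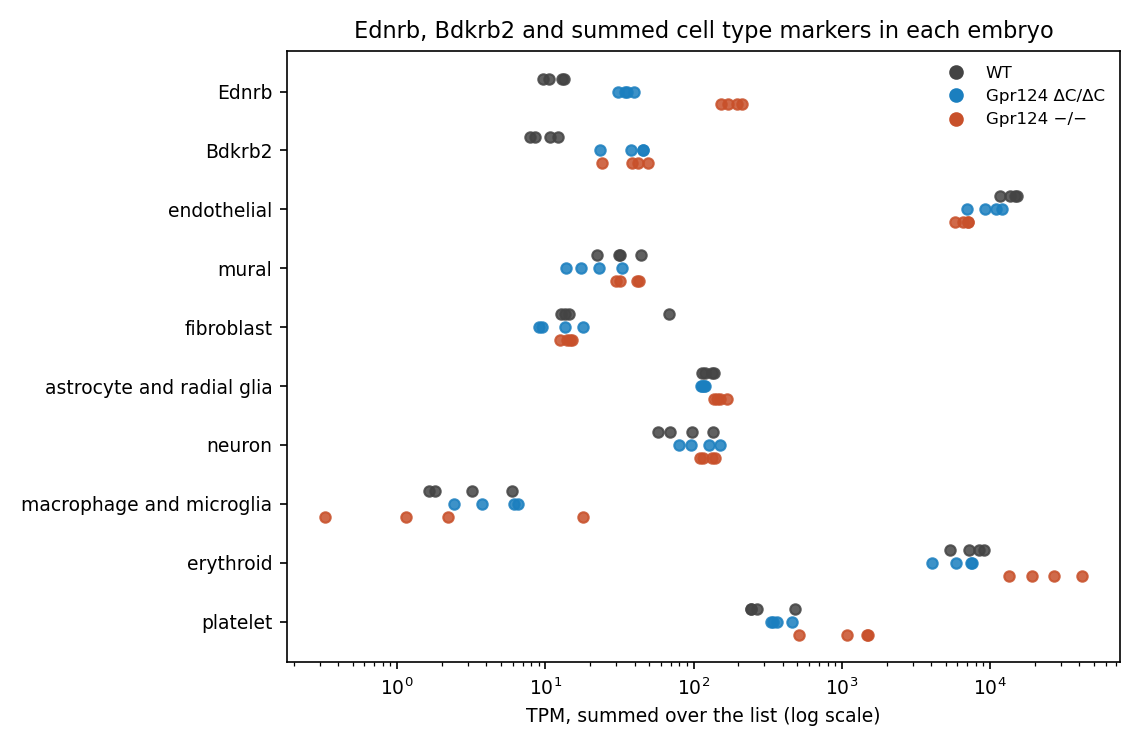
TPM on a log scale (horizontal axis) of Ednrb, Bdkrb2 and the summed markers of 8 cell types, with 1 point per embryo colored by genotype. Erythroid and platelet sums of all Gpr124-/- embryos lie above all others, at 13375 to 41527 and 513 to 1504 TPM, while Gpr124ΔC/ΔC erythroid sums reach 7477.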

How the data were processed

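The data are RNA-seq of sorted forebrain endothelial cells from 12 E15.5 embryos, amplified with SMART-Seq V4 chemistry after PicoPure extraction and sequenced by Genewiz. The authors deposited raw counts per Ensembl gene for each library and TPM values, which equaled TPM recomputed from the counts and gene lengths to within 0.00498% (TPM above 1). Bcl2fastq 2.17 and mm10 stand in the submitters' notes, and the aligner and counter are not given in the sources used here. Symbols and positions came from GENCODE vM21 (48970 identifiers matched, 345 did not), and start regions from RefSeq.

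In R 4.3.3, edgeR 4.0.16 filtered genes (filterByExpr, count minimum 10), scaled libraries by TMM (factors 0.946 to 1.04) and fitted all 12 libraries by genotype with glmQLFit and glmQLFTest, with Benjamini-Hochberg adjustment over 16637 genes. TPM was compared by exact two-sided permutation over 70 orders. The models were tested on simulated data. Alternatives were other scalings and filters, DESeq2 1.42.0, limma 3.58.1 on log2 TPM, the label letter as a term, the 2 compared genotypes alone, and each library left out. Named genes were the 9 members, called genes of the lists, cell type genes needed beside a member, Adgra2, and the 3 genes most like each member. Other list genes were named after their values were seen. Members and lists were chosen with earlier results of these data known. Embryos are separate animals, but litters are not given. The 4 embryos per genotype and low counts of some genes limit the precision.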

Additional observations from a re-analysis of the deposited data

Results flagged for a closer look

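Edn1 in Gpr124ΔC/ΔC had 1 embryo, JE4, at 56.9 TPM, apart from the other 3 at 33.2 to 37.1 TPM. Its gap to the nearest embryo was 0.834 of the whole range of the genotype. Of 27 groups of 4 embryos examined (9 genes in 3 genotypes), 1 met this rule, and chance alone gives about 1 in 20.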

How the results depend on the processing

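Ednrb kept its call under all 17 alternatives in all 3 comparisons, with log2 fold changes from 3.51 to 4.05 in Gpr124-/- and from 1.41 to 1.64 in Gpr124ΔC/ΔC against WT, and from 1.91 to 2.51 between the mutants. Bdkrb2 kept its call under all 17 against WT, from 1.80 to 2.12 in Gpr124-/- and from 1.70 to 1.98 in Gpr124ΔC/ΔC. A fit with the label letter called 846 genes in Gpr124-/- against WT, 428 in Gpr124ΔC/ΔC against WT and 209 between the mutants, against 1644, 320 and 766 without it. With the letter, the change in Gpr124-/- rests on 1 embryo, KE4, set against KE8, because M holds no other genotype and adds only to the spread. The values for Gpr124-/- from that fit are therefore not those of 4 embryos, and those between the mutants draw on J and L as well. Limma on log2(TPM + 1) called 482 between the mutants, and without a filter it called 386 there and 193 in Gpr124ΔC/ΔC. Leaving out single embryos gave 1450 to 1824, 257 to 326 and 506 to 1008, the 506 being without Gpr124-/- embryo ME5. Counts over all genes other than those with the letter were added after seeing the data. With the letter, 4 of the 8 members had an adjusted p under 0.05 in Gpr124ΔC/ΔC, Nos3 (0.046) and Edn1 (0.023) being added. The letter also turned the log2 fold change of Npr1 to 0.012 in Gpr124-/- against WT, of Ednra to 0.047 in Gpr124ΔC/ΔC against WT, and, between the mutants, of Edn1 to −0.12, Npr1 to 0.26 and Npr3 to 0.0051. None of these 5 passed the test before or after. Leaving out single embryos turned Npr3 in Gpr124-/- against WT to values from −0.033 to −0.010, Ednra in Gpr124ΔC/ΔC to 0.034 and between the mutants to 0.080, and Bdkrb2 between the mutants to values from −0.058 to −0.050, none of which passed. Over these left-out embryos the log2 fold change ranged from −0.033 to 0.13 for Npr3 in Gpr124-/-, from −0.35 to 0.034 for Ednra in Gpr124ΔC/ΔC, from −0.53 to 0.080 for Ednra between the mutants and from −0.058 to 0.23 for Bdkrb2 between the mutants. Npr1 in Gpr124-/- passed with DESeq2 (adjusted p = 0.0304) and with only the 2 compared genotypes in edgeR (0.0186). The cause of these shifts was not tested. Ednra could be fitted under 14 of the 17 alternatives.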
